A study of Rattus norvegicus with 6 samples.

Results

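The genes described here encode enzymes that add or remove methyl and acetyl groups on histones and DNA. They were taken by symbol: the lysine demethylase (Kdm), lysine methyltransferase (Kmt, Setd), DNA methyltransferase (Dnmt), histone deacetylase (Hdac), lysine acetyltransferase (Kat), sirtuin (Sirt) and TET dioxygenase families, together with Ep300, Crebbp and the Polycomb genes Ezh1, Ezh2, Suz12 and Eed. The names matched 78 of the 23096 genes in the table. Of these, 73 reached a normalised count of 10 in 3 or more of the 6 libraries and were tested, among 13110 genes in all. RNA came from ventricular cardiomyocytes of Wistar rat embryos at E18.5, freshly isolated and grown in serum-containing medium on laminin after pre-plating to lower the number of fibroblasts. One group received 10 µM all-trans retinoic acid (ATRA) and the other DMSO alone, as vehicle, for 48 h in both, with 3 poly(A) libraries in each. Nothing in the labels ties the libraries to different isolations of cells. The tests below therefore weigh a difference against the variation among these libraries, and that variation could be technical alone.

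Methyl groups on histone tails and on cytosines, and acetyl groups on histone lysines, mark which genes are open to transcription. Writers (methyltransferases, acetyltransferases) place them and erasers (demethylases, deacetylases, sirtuins, TET enzymes) take them off. The nuclear retinoic acid receptors work through the same enzymes: without ligand they hold corepressors with deacetylases on a gene, and with ligand they recruit coactivators with acetyltransferases. In the heart, class IIa deacetylases are known as repressors of MEF2 factors and of growth, and Polycomb and DNA methylation enzymes for the shift from fetal to mature gene programmes.

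ATRA changed a minority of these genes, and mostly by a small amount. Of the 73 tested, 12 rose and 11 fell at a Benjamini-Hochberg adjusted p under 0.05 in limma, run on log2(normalised count + 1) over all genes tested. That is 31.5% of the enzymes, beside a background of 39.3% called among all genes tested, with 16.4% of the enzymes higher beside 20.3% of all genes and 15.1% lower beside 18.9%. The genes that rose were Tet1, Hdac9, Dnmt3a, Hdac11, Sirt3, Kat2b, Kdm8, Kdm3b, Kat6b, Setd1b, Setd3 and Crebbp. Those that fell were Kdm7a, Hdac7, Sirt1, Tet3, Dnmt1, Ezh1, Sirt7, Kmt2a, Kat6a, Setd1a and Kdm5a. Tet1 alone passed a change of 2-fold, so 1 enzyme did (1.37%), against a background of 10.2% of all genes. The median absolute log2 fold change was 0.14 over the enzymes and 0.23 over all genes tested, and the median signed change was -0.003 and 0.004. The 3 ATRA libraries did not overlap the 3 vehicle libraries for 40 enzymes, or 54.8%, beside 53.8% of all genes.

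Among the 50 enzymes not called, 48 had a 95% interval of the log2 fold change that lay within 0.5 of 0 on both sides. The exceptions were Dnmt3b and Sirt4, both at low counts. The matching share over all genes not called was not computed, so these intervals do not set the enzymes apart. The scaling of the libraries moved the lower calls: with each library scaled by its total alone, the median of all genes lay at -0.104 and 8 enzymes were higher and 28 lower, beside 13.5% and 28.7% of all genes. With upper-quartile scaling they were 10 and 16, beside 16.9% and 22.8%. Counts of 10 higher and 11 lower came from both edgeR (39.2% of all genes called) and DESeq2 (38.2%). The authors' deposited table called 10 higher and 10 lower, beside 34.0% of the genes with an adjusted p there, all 20 in the direction found here; Crebbp, Hdac11 and Sirt7 were not called in it. Without vehicle replicate 3, 16 enzymes were higher and 14 lower, beside 26.0% and 24.1% of all genes. The share of all genes called was 25.9%, 26.1% and 25.6% without ATRA replicates 1, 2 and 3, and 36.7% and 30.6% without vehicle replicates 1 and 2. None of the 23 called enzymes changed direction in any of 16 alternative settings. Those called in every one were Dnmt3a, Hdac9, Kdm3b, Kdm8, Setd3, Sirt3, Tet1, Dnmt1, Hdac7, Kdm7a and Sirt1. The settings reuse the same libraries, and how many of all genes held their call or direction in this way was not counted. Whether the enzymes differ from other genes in this was therefore not tested.

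**Figure D1:**
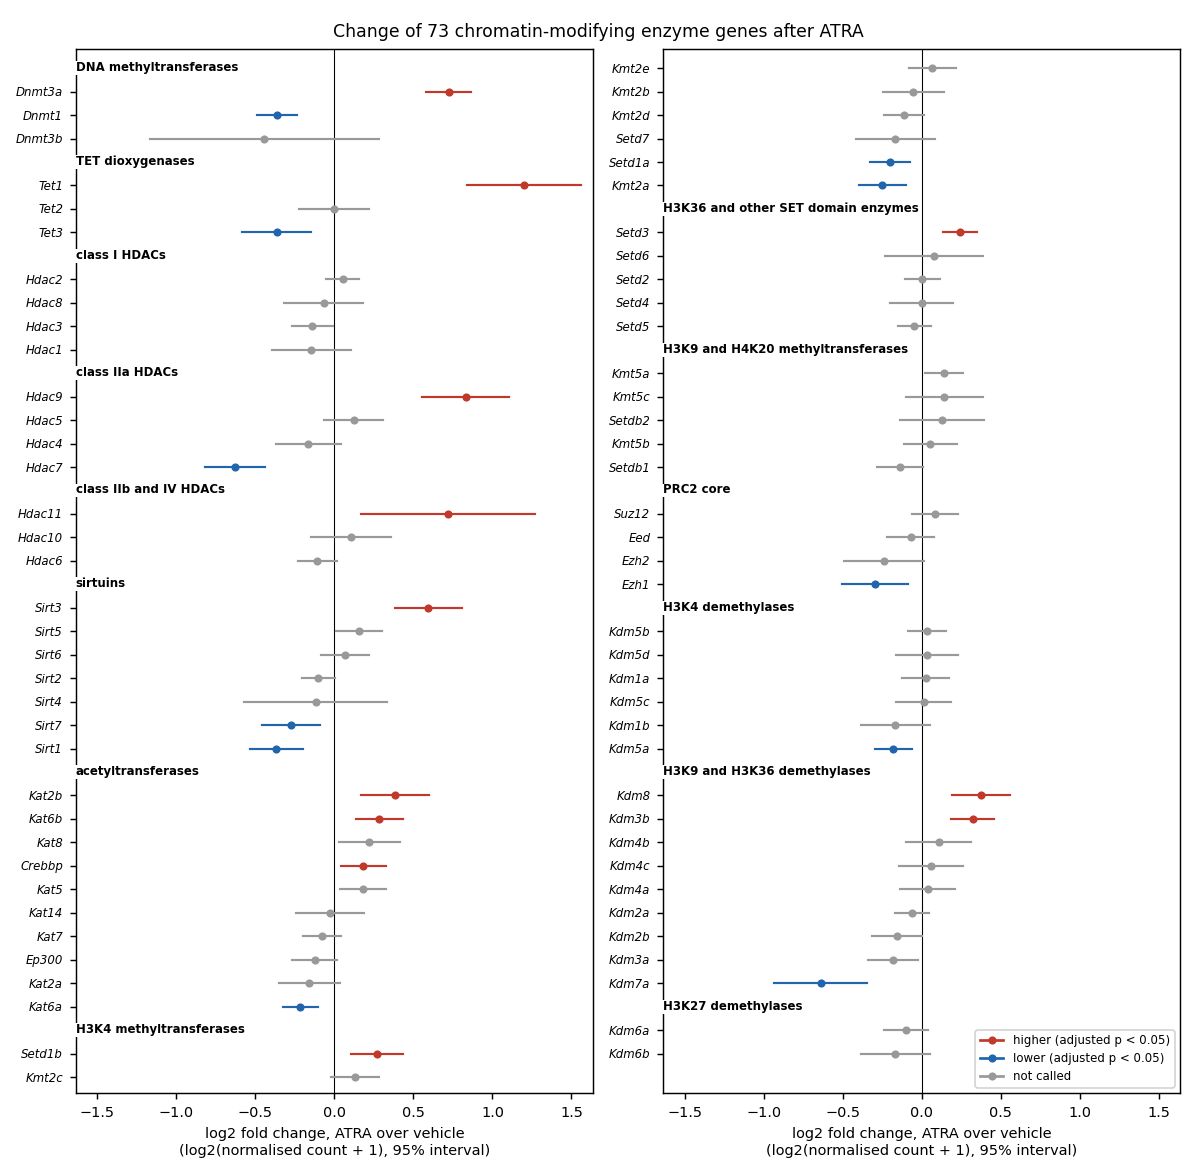
Log2 fold change (ATRA over vehicle, on the log2(normalised count + 1) scale, x axis) of the 73 tested enzyme genes, grouped by role and sorted within each role. Points are limma estimates from 3 libraries per group, lines are 95% intervals, red and blue mark adjusted p under 0.05; 7 of the 14 roles hold both a higher and a lower call, and 22 of the 50 genes not called lie within 0.1 of 0.

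The libraries held 25434878 to 32052035 gene-assigned reads, with 15969 to 16329 genes detected. All 8 cardiomyocyte markers were expressed, and their summed level was 21270 to 22020 FPKM (length-scaled read density, computed by the authors) after ATRA and 12690 to 16640 FPKM in vehicle. Fibroblast markers, also 8, summed to 766.8 to 811.3 FPKM after ATRA and to 1797, 1378 and 802.6 FPKM in vehicle replicates 1 to 3, and all 8 were lowest in vehicle replicate 3 among the vehicle libraries. Endothelial markers summed to 6.98 to 7.79 FPKM after ATRA and 3.89 to 7.8 FPKM in vehicle, and smooth muscle and pericyte markers to 101 to 115 FPKM after ATRA and 56.2 to 127 FPKM in vehicle. Immune markers, with Ptprc and C1qa below the filter, summed to 2.56 to 3.57 FPKM after ATRA and 2.71 to 4.03 FPKM in vehicle. By gene, the median log2 fold change was 0.39 for cardiomyocyte markers (4 called higher and 1 lower of 8), -0.44 for fibroblast markers (1 and 2 of 8) and -0.51 for endothelial markers (1 and 2 of 6). It was -0.36 for smooth muscle and pericyte markers (2 and 2 of 4 tested) and -0.96 for immune markers (1 and 1 of 3 tested). In such cultures fewer cells of a type and less RNA per cell cannot be told apart. The part of these differences in the values below was not tested. Results given without vehicle replicate 3 cannot test it. That library had the fibroblast sum nearest to the ATRA libraries, so leaving it out widens that difference between the groups.

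The DNA methyltransferases shifted between their maintenance and their de novo enzyme. Dnmt3a (ENSRNOG00000026649), which methylates cytosines that carry no mark yet, had 1611.8, 1647.0 and 1635.8 normalised counts after ATRA, against 924.3, 998.3 and 1047.3 in vehicle. Every ATRA library stood above every vehicle library, and Dnmt3a rose 1.65-fold (log2 fold change 0.72 ± 0.06, SE, n = 3 libraries per group here and below, limma adjusted p = 0.00012). Dnmt1 (ENSRNOG00000039859), which copies methylation onto new strands after replication, had 1885.1, 2033.2 and 1920.9 normalised counts after ATRA and 2542.5, 2406.2 and 2566.5 in vehicle. It fell in all 3 ATRA libraries below the lowest vehicle library (-0.36 ± 0.05, limma adjusted p = 0.0016). Dnmt3b, the second de novo enzyme, was close to silent, at 0.157 ± 0.056 FPKM after ATRA and 0.207 ± 0.009 FPKM in vehicle (SD, n = 3), and was not called.

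Per length, Dnmt3a made up 53.1% to 54.6% of the summed FPKM of the 3 tested DNA methyltransferases after ATRA and 33.7% to 36.7% in vehicle. Dnmt1 made up 44.9% to 46.2% after ATRA and 62.4% to 65.4% in vehicle. The order of the pair per length was therefore turned round between the groups. In normalised counts, which are not scaled by length, Dnmt1 stood above Dnmt3a in every library. The sum of the family was 24.3 to 25.5 FPKM after ATRA and 22.4 to 23.7 FPKM in vehicle. Replication markers moved alongside Dnmt1: all 10 were called lower, and they summed to 124 to 130 FPKM after ATRA and 186 to 194 FPKM in vehicle. Mitosis markers summed to 131 to 137 FPKM after ATRA and to 133, 147 and 108 FPKM in vehicle replicates 1 to 3. Their part in the lower Dnmt1 was not tested. Close copies can share reads, and how the authors' counting treated them is not given in the sources used here, so Dnmt3b and Dnmt3c, Hdac1 and Hdac1l, and Kdm5c and Kdm5d have uncertain separate values.

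Among the TET dioxygenases, which oxidise methylated cytosine as a step towards its removal, Tet1 and Tet3 moved in opposite directions. Tet1 (ENSRNOG00000000277) had the largest rise of all the enzymes, with 153.8, 165.8 and 151.8 normalised counts after ATRA against 57.1, 68.6 and 79.4 in vehicle. The ATRA libraries lay close together and well above the vehicle libraries (2.3-fold, 1.2 ± 0.16, limma adjusted p = 0.00083). It remained the least abundant member of its family per length, at 0.881 ± 0.043 FPKM after ATRA and 0.383 ± 0.062 FPKM in vehicle (SD, n = 3). Tet3 (ENSRNOG00000011387) had 574.2, 706.7 and 706.8 normalised counts after ATRA and 814.9, 846.4 and 890.7 in vehicle, with no overlap (-0.37 ± 0.09, limma adjusted p = 0.017). Its call was lost by a narrow margin without vehicle replicate 2 (-0.37, adjusted p = 0.0503 in limma). Tet2, at 3.3 ± 0.09 FPKM after ATRA and 3.33 ± 0.44 FPKM in vehicle (SD, n = 3), was not called, with a 95% interval of the log2 fold change from -0.22 to 0.22.

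Promoter sequence was taken from RefSeq (build GRCr8, windows of 300 bases that span each annotated start) for the 4 genes of the DNA methylation cycle that were called, since the CpG sites in them are the substrate of these enzymes. Capitals mark CpG dinucleotides, and each sequence runs 5′ to 3′ on the strand of its gene. The Dnmt3a window is chr6:32598352-32598651 on the plus strand, that of Dnmt1 chr8:27762792-27763091 on the minus strand, that of Tet1 chr20:25766556-25766855 on the plus strand and that of Tet3 chr4:117525446-117525745 on the minus strand.
Dnmt3a: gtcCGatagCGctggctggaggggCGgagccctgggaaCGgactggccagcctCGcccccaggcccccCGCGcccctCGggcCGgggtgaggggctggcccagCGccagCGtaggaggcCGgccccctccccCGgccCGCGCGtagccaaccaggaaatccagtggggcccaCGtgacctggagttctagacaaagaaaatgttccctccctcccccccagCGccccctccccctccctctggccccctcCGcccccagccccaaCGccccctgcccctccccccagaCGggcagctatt
Dnmt1: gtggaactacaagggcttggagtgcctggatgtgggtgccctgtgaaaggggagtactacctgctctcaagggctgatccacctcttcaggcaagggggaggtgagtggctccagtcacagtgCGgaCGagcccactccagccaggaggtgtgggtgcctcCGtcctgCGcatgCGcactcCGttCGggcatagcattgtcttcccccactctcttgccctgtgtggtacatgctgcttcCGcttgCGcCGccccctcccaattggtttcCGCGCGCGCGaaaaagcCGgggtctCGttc
Tet1: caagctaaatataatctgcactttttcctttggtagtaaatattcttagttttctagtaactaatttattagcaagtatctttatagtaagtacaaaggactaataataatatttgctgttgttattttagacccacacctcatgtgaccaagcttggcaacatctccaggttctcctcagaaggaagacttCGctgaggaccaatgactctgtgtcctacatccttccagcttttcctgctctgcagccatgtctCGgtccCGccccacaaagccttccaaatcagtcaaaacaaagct
Tet3: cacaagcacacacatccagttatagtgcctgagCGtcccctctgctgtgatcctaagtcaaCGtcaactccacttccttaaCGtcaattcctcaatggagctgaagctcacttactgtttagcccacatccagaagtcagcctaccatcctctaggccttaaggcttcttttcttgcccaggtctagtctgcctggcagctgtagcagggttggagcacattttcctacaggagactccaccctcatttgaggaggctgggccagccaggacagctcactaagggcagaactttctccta
The Dnmt3a and Dnmt1 windows held 21 and 17 CpG sites and those of Tet1 and Tet3 held 3 each. These counts describe the windows as annotated. Which start these cells use was not tested, so the windows of Tet1 and Tet3 need not be the promoters in use. A TGACCT, the complement of the nuclear receptor half-site AGGTCA, begins at base 175 of the Dnmt3a window, and the other 3 windows hold neither form.

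A wider look used the 61 of 73 enzymes matched to a promoter in the RefSeq table. CpG-rich windows were the rule: 56 of 61, or 91.8%, had at least 10 CpG sites, against 52.8% of 21851 protein-coding promoters, and the median was 21 CpG sites against 11. The share was 9 of 11 among enzymes that rose, 7 of 8 among those that fell and 40 of 42 among those not called. The half-site AGGTCA, searched on both strands, was in 4 of 61 enzyme windows (6.56%) and in 14.2% of protein-coding promoters. Dnmt3a was the 1 called enzyme with it, and Hdac8, Kat7 and Sirt5 were the others. Direct repeats of AGGTCA with 5, 2 or 1 bases of any kind between them, on either strand and each containing the single half-site, were in 0 of 61 windows, and over all 33469 promoters of the table in 3, 4 and 18. The letters TTTCCCGC, a form of the E2F motif, were in the windows of Kmt5c and Suz12 (3.28%) and in 1.28% of protein-coding promoters. These are matches of letters in a short window and say nothing of binding. The enzymes had all passed the expression filter, while the protein-coding promoters were not limited to expressed genes. Median GC content also differed, at 62.3% in the enzyme windows and 55.0% in protein-coding promoters. Whether these contrasts are particular to the enzymes was not tested.

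Histone deacetylases of class I, the abundant nuclear enzymes of corepressor complexes, were not called: 0 of 4 in limma, edgeR and DESeq2, with 1, Hdac3, at an unadjusted p under 0.05 in limma. Of all genes tested, 39.3% were called in limma, 39.2% in edgeR and 38.2% in DESeq2. Hdac2 was the most abundant of all 73 enzymes per length, at 49.9 ± 1.1 FPKM after ATRA and 48.2 ± 0.3 FPKM in vehicle (SD, n = 3). The 95% interval of its log2 fold change ran from -0.05 to 0.16. Hdac1 had 29.2, 28.9 and 30.0 FPKM after ATRA and 37.5, 33.8 and 27.1 FPKM in vehicle, so that vehicle replicate 3 lay below the ATRA libraries and the other vehicle libraries above them. Its log2 fold change was -0.15 ± 0.11 with all libraries and -0.28 without vehicle replicate 3, where it was called lower (limma adjusted p = 0.0037). Hdac3, which works with the NCOR corepressors of nuclear receptors, was lower by a small amount that was not called (-0.14 ± 0.06, limma adjusted p = 0.086), and it was called with library totals or upper-quartile scaling. Hdac8 had 1.39 ± 0.03 FPKM after ATRA and 1.46 ± 0.09 FPKM in vehicle (SD, n = 3).

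Class IIa deacetylases, which shuttle between nucleus and cytoplasm and bind MEF2, split. Hdac9 (ENSRNOG00000004158) had 562.4, 498.5 and 589.7 normalised counts after ATRA, against 273.9, 358.5 and 298.0 in vehicle. It rose 1.78-fold with no overlap between the groups (0.83 ± 0.12, limma adjusted p = 0.0013). Hdac7 (ENSRNOG00000055597), known for its role in endothelium, had 646.7, 664.3 and 689.4 normalised counts after ATRA and 1119.8, 925.3 and 1064.7 in vehicle. The ATRA libraries all lay below the lowest vehicle library (-0.63 ± 0.08, limma adjusted p = 0.00085). Of the 6 endothelial markers 1 was called higher and 2 lower, with a median log2 fold change of -0.51, and their part in the lower Hdac7 was not tested. Hdac5, the most abundant of the class at 18.6 ± 1.2 FPKM after ATRA and 17.1 ± 1.6 FPKM in vehicle (SD, n = 3), and Hdac4 were not called. Hdac9 made up 9.4% to 10.1% of the summed FPKM of the class after ATRA and 5.24% to 6.3% in vehicle, and Hdac7 11.8% to 13.2% after ATRA and 17.1% to 22.7% in vehicle. The sum of the class was 25.1 to 27.5 FPKM after ATRA and 24.6 to 26.9 FPKM in vehicle.

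In the remaining classes Hdac11, the lone class IV enzyme, had 74.5, 59.7 and 54.2 normalised counts after ATRA and 32.9, 50.3 and 31.5 in vehicle. The lowest ATRA library, at 54.2, lay just above the highest vehicle library, at 50.3 (0.72 ± 0.24, limma adjusted p = 0.044). This call did not hold in 13 of 16 alternatives, among them edgeR (adjusted p = 0.055), DESeq2 (0.0663) and each of 5 fits that left out ATRA replicate 1, 2 or 3 or vehicle replicate 1 or 3 (0.0714 to 0.157). Hdac6, a cytoplasmic tubulin deacetylase of class IIb with 19.4 ± 0.5 FPKM after ATRA and 20.9 ± 1 FPKM in vehicle (SD, n = 3), and Hdac10 were not called.

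**Figure D2:**
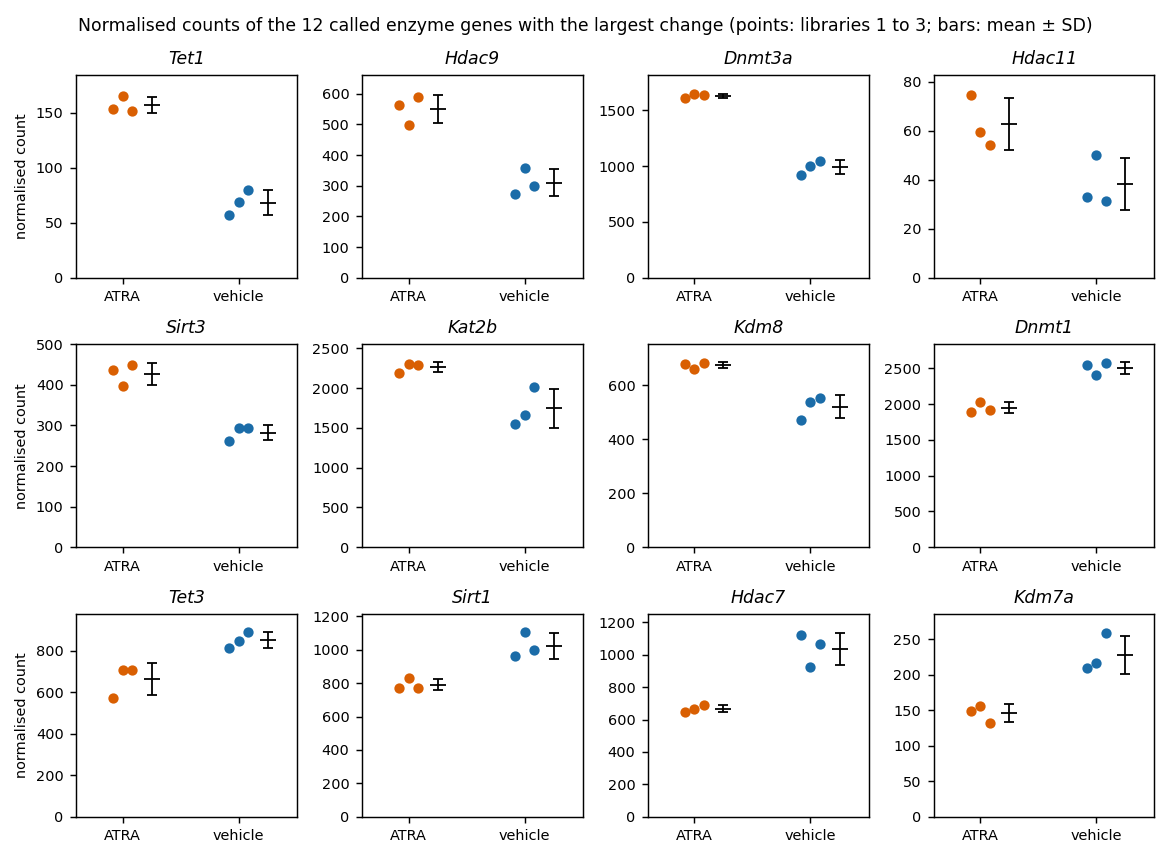
Normalised counts (y axis, from 0) in the 3 ATRA and 3 vehicle libraries for the 12 called enzyme genes with the largest absolute log2 fold change. Coloured points are libraries, black bars the mean ± SD. The groups do not overlap in any panel, which the choice of genes by call and size of change favours. Of all genes tested, 53.8% do not overlap either. The gap is narrowest for Hdac11, where 54.2 after ATRA is next to 50.3 in vehicle.

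Sirtuins, the NAD-dependent deacylases, also moved both ways, with 1 higher, 2 lower and 4 not called. Their share called was 42.9%, beside 39.3% of all genes tested. Sirt3 (ENSRNOG00000013828), the main deacetylase of the mitochondrial matrix, had 436.0, 396.3 and 447.7 normalised counts after ATRA and 261.3, 292.5 and 293.6 in vehicle. It rose 1.51-fold, and the lowest ATRA library was well above the highest vehicle library (0.59 ± 0.09, limma adjusted p = 0.002). Sirt1 (ENSRNOG00000051592), the nuclear enzyme with many non-histone targets, had 773.1, 828.1 and 770.7 normalised counts after ATRA and 964.0, 1108.5 and 996.1 in vehicle. Its 3 ATRA libraries were all lower than every vehicle library (-0.37 ± 0.07, limma adjusted p = 0.0056). Sirt7, a nucleolar enzyme, was lower by less (-0.27 ± 0.08, limma adjusted p = 0.027), and the call was lost without ATRA replicate 1, 2 or 3 or vehicle replicate 1 (adjusted p = 0.0517 to 0.0966). Sirt5, a mitochondrial desuccinylase, was the most abundant sirtuin per length, at 45.8 ± 1.6 FPKM after ATRA and 41.1 ± 2.7 FPKM in vehicle (SD, n = 3). It was not called (0.16 ± 0.06, limma adjusted p = 0.086), but was without vehicle replicate 3 (0.2, adjusted p = 0.0142). Sirt2, Sirt4 and Sirt6 were not called.

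Of 10 tested acetyltransferases, 3 rose and 1 fell, a share of 40.0% beside 39.3% of all genes tested. Kat2b (ENSRNOG00000011871), also known as PCAF, had 2189.8, 2298.1 and 2293.8 normalised counts after ATRA, against 1550.5, 1665.8 and 2015.1 in vehicle. Vehicle replicate 3 lay nearest to the ATRA libraries (0.38 ± 0.09, limma adjusted p = 0.014), and the call was lost without ATRA replicate 2 or 3 or vehicle replicate 2 (adjusted p = 0.0511 to 0.0565). The paralogues Kat6b and Kat6a, the MORF and MOZ enzymes, went opposite ways. Kat6b had 884.7, 899.8 and 880.2 normalised counts after ATRA and 709.4, 702.3 and 778.6 in vehicle (0.28 ± 0.07, limma adjusted p = 0.011, and 0.0508 without ATRA replicate 2). Kat6a had 1702.9, 1731.9 and 1794.1 normalised counts after ATRA and 1991.8, 2020.0 and 2055.4 in vehicle (-0.21 ± 0.05, limma adjusted p = 0.01, and 0.0545 without ATRA replicate 1). Within each of these 2 genes the groups did not overlap.

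Crebbp, the CBP coactivator of nuclear receptors, was higher by a small amount (0.18 ± 0.06, limma adjusted p = 0.046). That call was lost in 11 of 16 alternatives, including edgeR (adjusted p = 0.0562), DESeq2 (0.0655) and 5 of 6 fits with 1 library left out (0.0685 to 0.16), all but the one without vehicle replicate 3. Its partner Ep300, or p300, was not called (-0.12 ± 0.06, limma adjusted p = 0.15). A second row under the symbol Ep300 held 0 reads in all 6 libraries. Kat8, the H4K16 acetyltransferase and the most abundant of the group, had 31.5 ± 0.4 FPKM after ATRA and 27.2 ± 3.3 FPKM in vehicle (SD, n = 3). It was not called with all libraries (0.22 ± 0.08, limma adjusted p = 0.067) and was without vehicle replicate 3 (0.32, adjusted p = 0.00036), as was Kat5 (0.19, adjusted p = 0.0403). Kat2a was called lower without vehicle replicate 2 (-0.24, adjusted p = 0.0456).

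Among 8 methyltransferases of lysine 4 of histone H3, a mark of active promoters and enhancers, 1 rose and 2 fell. This was a share of 37.5%, beside 39.3% of all genes tested. The paralogues Setd1b and Setd1a diverged. Setd1b had 1856.7, 1793.6 and 1907.9 normalised counts after ATRA and 1402.4, 1557.3 and 1659.5 in vehicle (0.27 ± 0.07, limma adjusted p = 0.018). Setd1a had 1077.8, 1036.3 and 1006.0 normalised counts after ATRA and 1188.5, 1184.0 and 1213.6 in vehicle (-0.2 ± 0.05, limma adjusted p = 0.022). The groups did not overlap for either gene. Kmt2a, the MLL1 enzyme, was also lower, with 1166.9, 1241.6 and 1157.7 normalised counts after ATRA and 1372.4, 1356.8 and 1508.3 in vehicle (-0.25 ± 0.06, limma adjusted p = 0.017). Leaving out 1 library ended the call of Setd1b without ATRA replicate 1 or 3 (adjusted p = 0.0665 and 0.0793), of Setd1a without ATRA replicate 2 or 3 or vehicle replicate 2 (0.0515 to 0.0991), and of Kmt2a without ATRA replicate 1 or 3 (0.0709 and 0.0761). The most abundant of these 8 genes per length, Kmt2e, had 11.6 ± 0.1 FPKM after ATRA and 11.1 ± 0.8 FPKM in vehicle (SD, n = 3) and was not called. Without vehicle replicate 3, Kmt2c was called higher (0.18, adjusted p = 0.0209) and Setd7 lower (-0.26, adjusted p = 0.0433).

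Setd3, a SET domain protein best known as the enzyme that methylates a histidine of actin, had 2843.3, 2892.6 and 2802.2 normalised counts after ATRA and 2354.8, 2423.6 and 2445.8 in vehicle. The rise was small and steady, with narrow groups that did not overlap (0.24 ± 0.05, limma adjusted p = 0.0049). Setd2, the enzyme that trimethylates lysine 36 of histone H3, had a log2 fold change whose 95% interval ran from -0.11 to 0.11, and Setd4, Setd5 and Setd6 were not called either. None of the 5 tested methyltransferases of H3K9 and H4K20 was called in limma, edgeR or DESeq2, and 1, Kmt5a, had an unadjusted p under 0.05 in limma. The shares of all genes called by these tools were 39.3%, 39.2% and 38.2%. The most abundant of them, Kmt5a, which places a single methyl group on H4K20 and is tied to the cell cycle, had 22.8 ± 0.4 FPKM after ATRA and 20.7 ± 1 FPKM in vehicle (SD, n = 3). Its change was 0.14 ± 0.05 with limma adjusted p = 0.061, and 0.16 with adjusted p = 0.0281 without vehicle replicate 3.

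In the core of Polycomb repressive complex 2, which methylates H3K27, 1 of 4 genes was called, a share of 25.0% beside 39.3% of all genes tested. The median absolute log2 fold change of the core was 0.16, beside 0.14 over all 73 enzymes. Ezh1, the catalytic subunit of non-dividing cells, had 516.3, 435.8 and 514.9 normalised counts after ATRA and 587.5, 574.7 and 634.0 in vehicle. It was called lower (-0.29 ± 0.09, limma adjusted p = 0.034), a call that was lost without ATRA replicate 1, 2 or 3 or vehicle replicate 2 (adjusted p = 0.0591 to 0.118). Ezh2, the catalytic subunit of dividing cells, had 386.0, 399.4 and 359.9 normalised counts after ATRA and 454.9, 511.3 and 391.5 in vehicle. Vehicle replicate 3 lay within the range of the ATRA libraries, and Ezh2 was not called (-0.24 ± 0.11, limma adjusted p = 0.12). Without that library it was called lower (-0.34, adjusted p = 0.0128), and all 10 mitosis markers were lower in that library than in the other 2 vehicle libraries. Suz12, at 12.7 ± 0.2 FPKM after ATRA and 12 ± 0.8 FPKM in vehicle (SD, n = 3), and Eed were not called, with 95% intervals of -0.06 to 0.23 and -0.22 to 0.08.

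Demethylases of H3K9 and H3K36 held the larger changes among the histone demethylases, with 2 higher and 1 lower of 9 tested. The share called was 33.3%, beside 39.3% of all genes tested. Kdm7a (ENSRNOG00000052445), which acts on H3K9 and H3K27, had 148.9, 156.7 and 132.3 normalised counts after ATRA and 209.1, 216.1 and 258.8 in vehicle. It fell in every ATRA library below the lowest vehicle library (-0.64 ± 0.13, limma adjusted p = 0.0061). Kdm8 (ENSRNOG00000015180), a JmjC protein whose activity as a demethylase is debated, had 677.0, 660.2 and 682.9 normalised counts after ATRA and 472.3, 537.3 and 551.4 in vehicle (0.37 ± 0.08, limma adjusted p = 0.0075). Kdm3b, an H3K9 demethylase, had 2269.2, 2308.2 and 2333.9 normalised counts after ATRA and 1718.9, 1871.5 and 1941.2 in vehicle (0.32 ± 0.06, limma adjusted p = 0.0039). In both of these the ATRA libraries lay above all vehicle libraries. The paralogue Kdm3a was not called (-0.18 ± 0.07, limma adjusted p = 0.067), and neither was Kdm2a, the most abundant of this group at 13.8 ± 0.3 FPKM after ATRA and 14.5 ± 0.3 FPKM in vehicle (SD, n = 3). Kdm2b and the Kdm4 genes Kdm4a, Kdm4b and Kdm4c were not called.

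H3K4 demethylases hardly moved. Kdm5a had 1991.9, 2046.4 and 2059.7 normalised counts after ATRA and 2346.0, 2364.6 and 2195.6 in vehicle, the smallest change of any called enzyme (-0.18 ± 0.05, limma adjusted p = 0.027). Its call was lost without ATRA replicate 1, 2 or 3 or vehicle replicate 2 (adjusted p = 0.0793 to 0.107). Kdm5c, the most abundant of the group, had 28.3 ± 0.6 FPKM after ATRA and 28.1 ± 2.9 FPKM in vehicle (SD, n = 3), with a 95% interval of the log2 fold change from -0.16 to 0.18. Kdm5d, its copy on the Y chromosome, had 1.56 ± 0.03 FPKM after ATRA and 1.53 ± 0.05 FPKM in vehicle (SD, n = 3), a level steady across all 6 libraries. Kdm1a, Kdm1b and Kdm5b were not called. Of the H3K27 demethylases, Kdm6b had 9.42 ± 0.2 FPKM after ATRA and 10.6 ± 1.4 FPKM in vehicle (SD, n = 3) and Kdm6a 4.9 ± 0.1 FPKM after ATRA and 5.26 ± 0.15 FPKM in vehicle, and neither was called. Kdm6b was called lower without vehicle replicate 1 (-0.28, adjusted p = 0.0042).

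Since several paralogues or functional counterparts went opposite ways, 8 pairs, chosen after their values were seen, are described by the ratio of their FPKM within each library, a quantity that does not depend on how libraries are scaled. Dnmt3a over Dnmt1 was 1.15 to 1.21 after ATRA and 0.515 to 0.588 in vehicle. Tet1 over Tet3 was 0.282 to 0.352 after ATRA and 0.092 to 0.117 in vehicle, and Hdac9 over Hdac7 was 0.712 to 0.825 after ATRA and 0.232 to 0.367 in vehicle. These 3 ratios differed the most, by 1.09, 1.58 and 1.47 on the log2 scale. Sirt3 over Sirt1 was 0.427 to 0.518 after ATRA and 0.235 to 0.263 in vehicle. The ratio of Kat6b to Kat6a was 0.489 to 0.518 after ATRA and 0.347 to 0.378 in vehicle, that of Setd1b to Setd1a 0.765 to 0.842 after ATRA and 0.524 to 0.607 in vehicle. Kdm3b over Kdm3a was 1.59 to 1.81 after ATRA and 1.13 to 1.28 in vehicle. Crebbp over Ep300 differed least, at 1.07 to 1.24 after ATRA and 0.904 to 0.929 in vehicle. Only for Dnmt3a over Dnmt1 and Crebbp over Ep300, of these 8, did the ratio cross 1 between the groups.

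**Figure D3:**
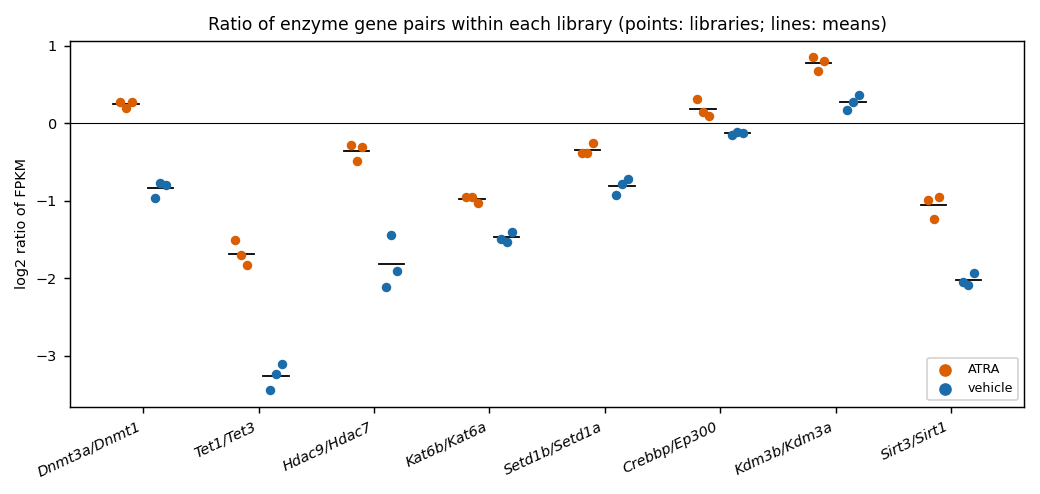
Log2 ratio of FPKM (y axis) of 8 enzyme gene pairs within each of the 3 ATRA (orange, left) and 3 vehicle (blue, right) libraries, with group means as lines. Pairs were chosen after their values were seen, with the gene of higher fold change on top. That the ATRA libraries lie above the vehicle libraries in each pair follows from this choice. Dnmt3a over Dnmt1 is 0.2 to 0.28 after ATRA and -0.96 to -0.77 in vehicle.

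Partners of these enzymes were taken from 11 lists of complex subunits, readers and further histone-modifying enzymes, with 128 of 132 genes tested. Of these, 30 rose and 22 fell, which is 40.6%, next to the background of 39.3% given above, with a median log2 fold change of -0.007. With library totals alone 15 were higher and 41 lower, beside 13.5% and 28.7% of all genes. With upper-quartile scaling they were 17 and 32, beside 16.9% and 22.8%. The readers and helpers of DNA methylation had 1 higher and 5 lower of 11. Uhrf1, which brings Dnmt1 to replicated DNA and is itself among the replication markers, had 481.1, 491.4 and 548.5 normalised counts after ATRA and 945.6, 849.8 and 829.8 in vehicle (-0.79 ± 0.08, limma adjusted p = 0.00034). The stress gene Gadd45g, linked to DNA demethylation, was lower as well (-0.73 ± 0.11, limma adjusted p = 0.0018). Tdg, the glycosylase that cuts out the products of TET enzymes and binds retinoic acid receptors, had 4368.9, 4367.8 and 4409.8 normalised counts after ATRA and 2957.7, 3144.1 and 3240.7 in vehicle. It rose 1.41-fold, with ATRA libraries that differed little among themselves (0.49 ± 0.05, limma adjusted p = 3e-04).

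The other large rises among called partners included regulators of muscle and a corepressor subunit. Smyd1, a muscle-specific methyltransferase, had 9207, 9490 and 9458 normalised counts after ATRA and 4706, 5954 and 5953 in vehicle (0.77 ± 0.09, limma adjusted p = 0.00057). Prdm16, a regulator of compact ventricular muscle, had 1517, 1431 and 1520 normalised counts after ATRA and 588.4, 709.2 and 904.8 in vehicle (1.04 ± 0.14, limma adjusted p = 0.00095). The ATRA libraries were above every vehicle library for both. Chd3, a helicase of the NuRD deacetylase complex, was also higher (0.68 ± 0.07, limma adjusted p = 0.00023). Brdt, a bromodomain gene known from testis, was low in both groups and rose, with 32.3, 47.5 and 49.9 normalised counts after ATRA against 11.6, 15.6 and 14.1 in vehicle (1.57 ± 0.26, limma adjusted p = 0.0028).

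The largest falls among called partners were those of Hr, Phf19 and Mecom. Hr, a JmjC corepressor named for the hairless phenotype, had 2.9, 9.1 and 11.9 normalised counts after ATRA and 44.5, 42.5 and 26.1 in vehicle (-2.24 ± 0.47, limma adjusted p = 0.0077). It had 23 reads over the ATRA libraries and 119 over the vehicle libraries. After ATRA only replicate 3 reached the filter's count of 10, so Hr was tested because of its level in vehicle. The size of its fall is therefore uncertain. Phf19, an accessory subunit of Polycomb repressive complex 2, had 29.4, 38.4 and 36.9 normalised counts after ATRA and 86.1, 85.9 and 58.7 in vehicle (-1.11 ± 0.22, limma adjusted p = 0.0057). Mecom had overlapping groups, with 131.3, 179.0 and 130.1 normalised counts after ATRA and 396.8, 313.4 and 170.7 in vehicle (-0.93 ± 0.29, limma adjusted p = 0.037). Its call was lost without any one library other than vehicle replicate 3 (adjusted p = 0.0546 to 0.121). Among the other lists, HDAC corepressors had 6 higher and 2 lower of 24, Polycomb repressive complex 1 had 5 and 2 of 18, COMPASS subunits, which serve the H3K4 methyltransferases, had 1 and 0 of 7, and further acetyltransferases and coactivators had 5 and 2 of 18. Arginine methyltransferases had 4 and 2 of 8, other lysine methyltransferases 3 and 3 of 16, other demethylases 1 and 2 of 8, acetyl-lysine readers 2 and 2 of 6, and class II deacetylase interactors 1 and 1 of 5. Accessory subunits of Polycomb repressive complex 2 had 1 and 1 of 7. Beside these lists, 20.3% of all genes tested were called higher and 18.9% lower, and each list is short.

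**Figure D4:**
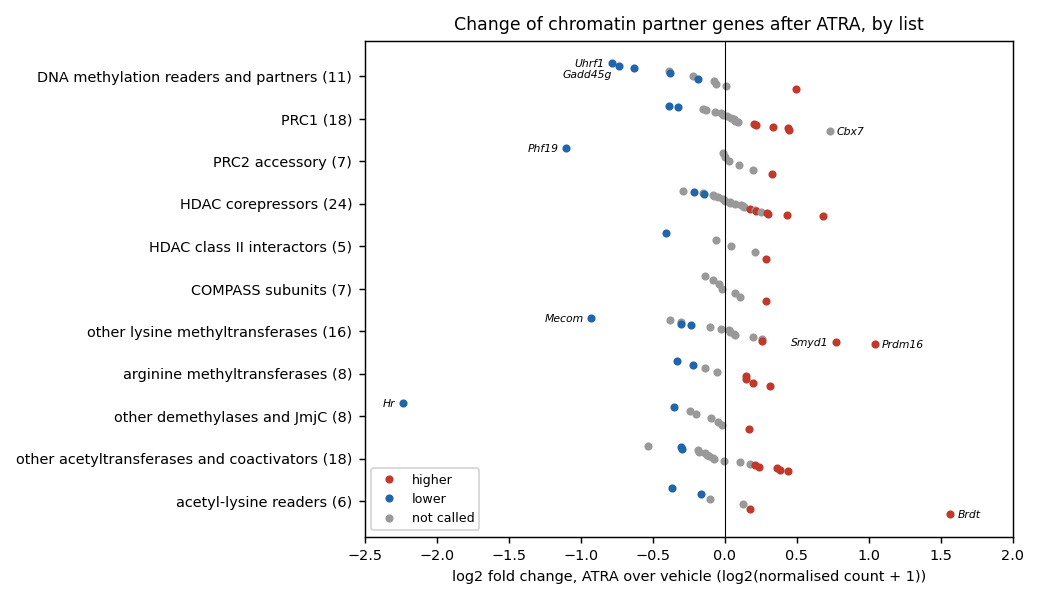
Log2 fold change (ATRA over vehicle, log2(normalised count + 1) scale, x axis) of 128 partner genes in 11 lists (y axis, number tested in parentheses), red for higher, blue for lower and grey for not called in limma. Genes beyond 0.7 in either direction are named; most lists hold points on both sides of 0, and Hr at -2.24 and Brdt at 1.57 lie farthest out. Both have low counts, and Hr passed the filter through the vehicle libraries.

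The 5 enzyme genes below the filter had few reads. Hdac1l had 14 reads over the ATRA libraries and 24 over the vehicle libraries, Kdm4d 4 and 14, Dnmt3c 0 and 5, Dnmt3l 2 and 0, and the second Ep300 row 0 in both. These genes were not tested. At these depths 3 reads equal 0.094 to 0.118 CPM.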

How the data were processed

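Poly(A) RNA-seq of 6 libraries was used. Per the submitters' processing notes, the authors worked on the build mRatBN7.2 with STAR 2.7.3a, Trim Galore 0.6.4, DESeq2 1.32.0 and HTSeq 0.11.2. Strand setting, gene annotation and handling of multi-mapping reads were not given in the sources used here, which leaves overlapping and antisense genes uncertain. The deposited table holds the authors' normalised count signal and FPKM for each library. It also holds the authors' own comparison: log2 fold change, standard error, score of the test, raw p-value and its adjusted value, per the file headers.

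The normalised counts were whole multiples of 1 step per library for 100% of values (tolerance 1e-06), which gave reads per gene; the step of ATRA replicate 2, 1.011, lies near 1, where this is a weaker check. Depths cover counting error only. Libraries of a group all differed by more than sampling noise (chi-square over its degrees of freedom: 2.61 to 3.45 within ATRA, 23.3 to 49.2 within vehicle).

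The main test was limma 3.58.1 (R 4.3.3) with trended variance on log2(normalised count + 1), which understates changes of low genes, for genes at 10 or more in at least 3 libraries; genes were called at adjusted p under 0.05. Alternatives were other filters (50, none), pseudocounts (0.5, 8), library totals, upper-quartile scaling, edgeR 4.0.16 and DESeq2 1.42.0 on recovered reads, array weights, a replicate block and leaving out each library. The limma, edgeR and DESeq2 steps were run on simulated data with the same spread in both groups, unlike these libraries. Every called enzyme and the most abundant of each role is named, as are the 5 partners called higher and the 5 called lower with the largest changes; 2 partner symbols (Pagr1, Suv39h1) were not matched. The members and lists were chosen with earlier results of these data known.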

Additional observations from a re-analysis of the deposited data

How the results depend on the processing

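Scaling each library by its total alone gave 28 enzymes lower in place of 11, 15 partner genes higher in place of 30 and 41 lower in place of 22, and 1765 of all genes higher in place of 2667 and 3769 lower in place of 2483; upper-quartile scaling gave 17 partner genes higher. With these 2 scalings the median log2 fold change of all genes lay at -0.104 and -0.045, beside 0.004 in the main fit. With 1 library left out, enzymes higher ranged from 8 to 16 and lower from 6 to 14, partner genes from 15 to 36 and 12 to 27, and all genes from 1715 to 3404 and 1645 to 3161; the highest counts were those without vehicle replicate 3 and the lowest those without an ATRA replicate. Stricter or no filter, other pseudocounts, edgeR (2550 higher and 2592 lower over all genes), DESeq2 (2512 and 2501) and array weights kept each of these counts within 1.5 times. Among the enzymes followed through every setting, which are the called ones and the most abundant of each role, library totals turned round the direction of 4 that were not called and lay near 0, Hdac2 (-0.06), Kmt2e (-0.04), Suz12 (-0.02) and Kdm5c (-0.1), which was also -0.04 with upper-quartile scaling, 0 without ATRA replicate 2, -0.04 without vehicle replicate 1 and -0.02 without vehicle replicate 2; Tet2 was 0.02 with array weights and without ATRA replicate 2, and ranged from -0.09 to 0.1 with 1 library left out. The cause was not tested. With the replicate number as a block, 10 enzymes were higher and 8 lower, 20 and 19 partner genes and 2302 and 2135 of all genes. Same-numbered libraries did not deviate together (correlations 0, -0.1 and -0.01 for numbers 1, 2 and 3), and not every library correlated best with its own number, so the numbers were not taken as pairs. Low counts left 5 enzymes untested; how far depth, the number of libraries and the spread within vehicle each limit the other calls was not separated.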

Other observations

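The vehicle libraries differed among themselves more than the ATRA libraries did. Over the 73 enzymes the median SD of log2(normalised count + 1) was 0.048 within ATRA and 0.09 within vehicle, and the vehicle SD was the larger one for 55 of them; over all genes tested the medians were 0.068 and 0.143. Relative to the mean of vehicle replicates 1 and 2, vehicle replicate 3 was lowest for Hdac1 (-0.39 on the log2 scale), Hdac11 (-0.36) and Ezh2 (-0.3) and highest for Setd6 (0.37), Tet1 (0.34) and Kat2b (0.33).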
